A study of Homo sapiens with 4 samples.

Results

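The genes described here are 10 immediate early genes: the AP-1 subunits FOS, FOSB, FOSL1, FOSL2, JUN and JUNB, the zinc finger factor EGR1, and the orphan nuclear receptors NR4A1, NR4A2 and NR4A3. They were taken by gene name from 1-colour microarrays, with all of their probes, and they make up 10 of 43317 gene names on the array. The members were chosen by name as a gene family, after earlier results of these data had been seen, and the values that drew attention to them were the miR-891b minus NC1 changes, above all that of NR4A3 in both cell lines. The values below therefore describe these genes and test nothing. The 10 genes were measured by 12 probes, with 2 each for NR4A2 and NR4A3 and 1 for every other gene, and each probe was printed at 1 spot.

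Total RNA came from 2 established human cancer cell lines, HCT116 (colorectal) and A549 (lung), each transfected with the microRNA miR-891b or with NC1, a negative control RNA. All 4 cultures received the transfection reagent Dharmafect1, so NC1 stands for transfected and not for untouched cells. Both lines were thus represented by 1 NC1 array and 1 miR-891b array, or 4 arrays in 4 groups. With 1 array a group there is no spread within a group to set a difference against. No fit over both lines was made and no p-value is printed, because the genes were chosen with these changes known. Where 4 values are given together, they are in the order NC1 and miR-891b in HCT116, then NC1 and miR-891b in A549. The series asks about PSAT1, an enzyme of serine synthesis, and how cancer cells release extracellular vesicles. The dose of the RNAs and the time between transfection and harvest are not given in the sources used here.

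Immediate early genes are switched on by existing signalling proteins, without new protein synthesis, when a cell meets a growth factor, a stress or fresh medium. ERK signalling acts on them through serum response factor and its ternary complex partners at CArG boxes, and cyclic AMP and calcium signals act through CREB at cyclic AMP response elements. FOS and JUN proteins pair to form the AP-1 transcription factor, and NR4A proteins bind DNA without a known hormone. Many of these transcripts are short-lived, so their level follows recent signalling closely.

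The transfected microRNA and the start regions of 4 of the genes are shown. The comparison turns on the first, and matches to known control elements, not the same in each gene, lie in the second. The mature sequence is that of RefSeq (GRCh38.p14, chrX:146001100-146001121, - strand), with the seed, bases 2 to 8, in capitals.
miR-891b: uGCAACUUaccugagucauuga
The seed pairs with the DNA letters AAGTTGC. None of the 12 member probes, which sample 60 bases each, held these letters (0 of 12), against 229 of 58201 gene probes (0.393%). The rest of each transcript was not analysed here.

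Promoters were taken from RefSeq (GRCh38.p14) as the 250 bases before each annotated start. The table held 8 of the 10 genes, with 2 starts for NR4A1 and without FOSL1 and NR4A2. Searched on both strands, the core of the cyclic AMP response element, TGACGT, stood in the windows of 5 of the 8 genes (EGR1, FOS, FOSB, FOSL2 and NR4A3), against 7.10% of all 35116 windows of that length. The full palindrome TGACGTCA, which contains the core, stood in none of the 8 and in 1.65% of all windows. CArG boxes stood in the EGR1 window only among the 8, at 2 places, and in 1.16% of all windows. Bases farther than 250 from a start were not searched, so a gene without a match may carry the element farther upstream. The AP-1-like element TGACATCA stood in the JUN window and in 2.37% of all windows. TGAGTCA, the AP-1 site, and AAAGGTCA, the site of NR4A monomers, stood in no window of the 8 and in 4.20% and 1.05% of all. In the 4 windows that follow, these elements are in capitals.
NR4A3 promoter, chr9:99821635-99821884 (+ strand): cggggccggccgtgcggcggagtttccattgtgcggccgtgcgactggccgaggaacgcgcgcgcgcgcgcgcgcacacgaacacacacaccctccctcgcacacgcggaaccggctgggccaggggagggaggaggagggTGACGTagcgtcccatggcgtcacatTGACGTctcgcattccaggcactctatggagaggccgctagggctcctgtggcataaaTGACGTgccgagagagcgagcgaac
FOS promoter, chr14:75278578-75278827 (+ strand): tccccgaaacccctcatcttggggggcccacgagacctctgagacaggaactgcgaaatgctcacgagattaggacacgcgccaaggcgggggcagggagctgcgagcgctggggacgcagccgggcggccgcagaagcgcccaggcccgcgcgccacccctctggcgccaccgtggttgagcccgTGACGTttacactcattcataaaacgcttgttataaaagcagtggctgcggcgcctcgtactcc
EGR1 promoter, chr5:138465229-138465478 (+ strand): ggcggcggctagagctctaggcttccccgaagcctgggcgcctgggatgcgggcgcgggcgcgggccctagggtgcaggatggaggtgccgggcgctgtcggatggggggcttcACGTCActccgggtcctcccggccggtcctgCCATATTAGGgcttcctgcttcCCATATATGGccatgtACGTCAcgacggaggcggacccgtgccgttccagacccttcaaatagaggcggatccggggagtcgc
JUN promoter, chr1:58784048-58784297 (- strand): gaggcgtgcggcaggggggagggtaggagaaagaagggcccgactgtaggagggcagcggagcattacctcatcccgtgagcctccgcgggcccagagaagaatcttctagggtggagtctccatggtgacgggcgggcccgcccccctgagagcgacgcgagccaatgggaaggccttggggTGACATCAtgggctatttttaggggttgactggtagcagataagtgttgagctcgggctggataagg
NR4A3 had 3 TGACGT cores, whose first bases on the printed strand lay 109, 83 and 25 bases before the start, and FOS had 1 at 64 bases. In EGR1 the 2 CArG boxes began 105 and 83 bases before the start, next to 2 TGACGT cores (printed as their reverse complement) at 136 and 67. The JUN element began 67 bases before the start. A match of letters is a description of the sequence and shows no binding.

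Between 44.7% and 50.3% of 58201 gene probes were well above background on an array, by the mark that the scanner software sets, and no gene spot was saturated. All levels below are log2 processed signal minus the 75th percentile of the array's gene probes, so 0 is a rather bright probe, and changes are miR-891b minus NC1. Levels of different genes are not compared with each other. Probes printed at 5 or more spots gave the SD of a log2 change between spots of the same arrays. Its median was 0.06 and 0.07 for signals of 100 to 2000 in HCT116 and A549, 0.10 and 0.15 for signals of 30 to 100, and 0.19 and 0.23 for signals under 30. These SDs cover the spots only, not cultures or labelling, and the 2 dimmer classes rest on 5 to 14 probes. Of the measured members, 8 of 9 in HCT116 and 9 of 10 in A549 changed by more than the 90th percentile of the SD of their class. So did 63.7% of 17227 measured genes with signals under 2000 in HCT116 and 70.1% of 19272 in A549, so nothing particular to the members is read from these counts. The exceptions among the members were FOSL2 in HCT116 and NR4A2 in A549. Both arrays of a line lay on 1 slide, so lines and slides cannot be told apart. Of the markers of each line, 5 A549 markers measured on both NC1 arrays were higher in A549 and 4 HCT116 markers were lower there. CDH17 and VIL1, listed for HCT116, were not well above background in HCT116 but were in A549. AKR1B10, an A549 marker, stood at -2.29 on HCT116 NC1 and at 2.18 on HCT116 miR-891b. The other A549 markers measured on both HCT116 arrays changed there by -0.48 (ALDH3A1), -0.51 (NQO1) and -0.28 (KRT81). The summed signal of 8 fibroblast markers was 2.67 and 2.22 times the 75th percentile in HCT116 and 4.28 and 10.6 times in A549 (NC1, then miR-891b). In A549, 4 of the 8 were well above background, and DCN, COL1A2, COL3A1 and POSTN were not on any array. LUM made up most of the A549 increase, at 1.03 with NC1 and 3.17 with miR-891b, while THY1 changed by -1.04, COL1A1 by -0.59 and PDGFRB by -0.04. The part of other cells in the changes below was not tested.

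**Figure D1:**
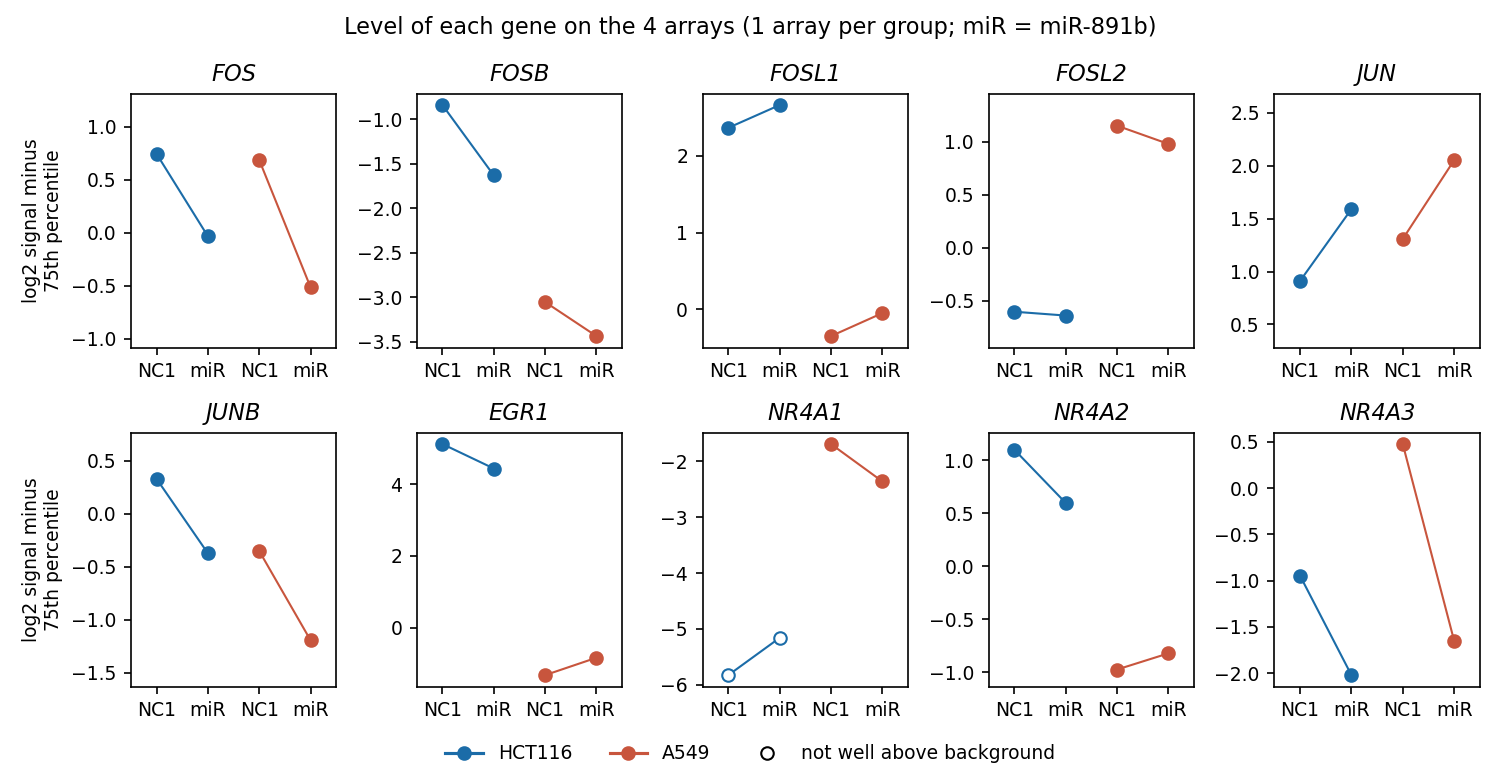
Level of each of the 10 genes on the 4 arrays, in log2 units above or below the array's 75th percentile (vertical axis, own range for each gene), for HCT116 (blue) and A549 (red) with NC1 and with miR-891b. Each point is 1 array, and open points are not well above background. NR4A3, FOS and JUNB lie lower with miR-891b in both lines and JUN lies higher in both, while EGR1 goes from 5.11 to 4.43 in HCT116 and from -1.31 to -0.83 in A549.

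With miR-891b, NR4A3, FOS, JUNB and FOSB were lower in both lines and JUN and FOSL1 were higher in both. At 2-fold, only NR4A3 was called in HCT116 (1 of 9 measured members), and NR4A3 and FOS were called in A549 (2 of 10). No member was 2-fold higher in either line. Over all genes, 0.843% were at least 2-fold lower and 1.16% higher in HCT116, and 5.57% and 4.01% in A549. At 1.5-fold, FOS, FOSB, JUNB, EGR1 and NR4A3 were lower in HCT116 (5 of 9) and JUN was higher (1 of 9), with 5.65% of all genes lower and 3.91% higher. In A549, FOS, JUNB, NR4A1 and NR4A3 were lower at 1.5-fold (4 of 10) and JUN was higher (1 of 10), with 15.3% and 11.1% of all genes. The median change was -0.68 over 9 members in HCT116, beside -0.04 over 19105 genes, and -0.28 over 10 members in A549, beside -0.06 over 21337 genes. Since these contrasts were known when the genes were listed, nothing is read from the counts. In bulk RNA, fewer cells with a transcript and less transcript per cell cannot be told apart.

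**Figure D2:**
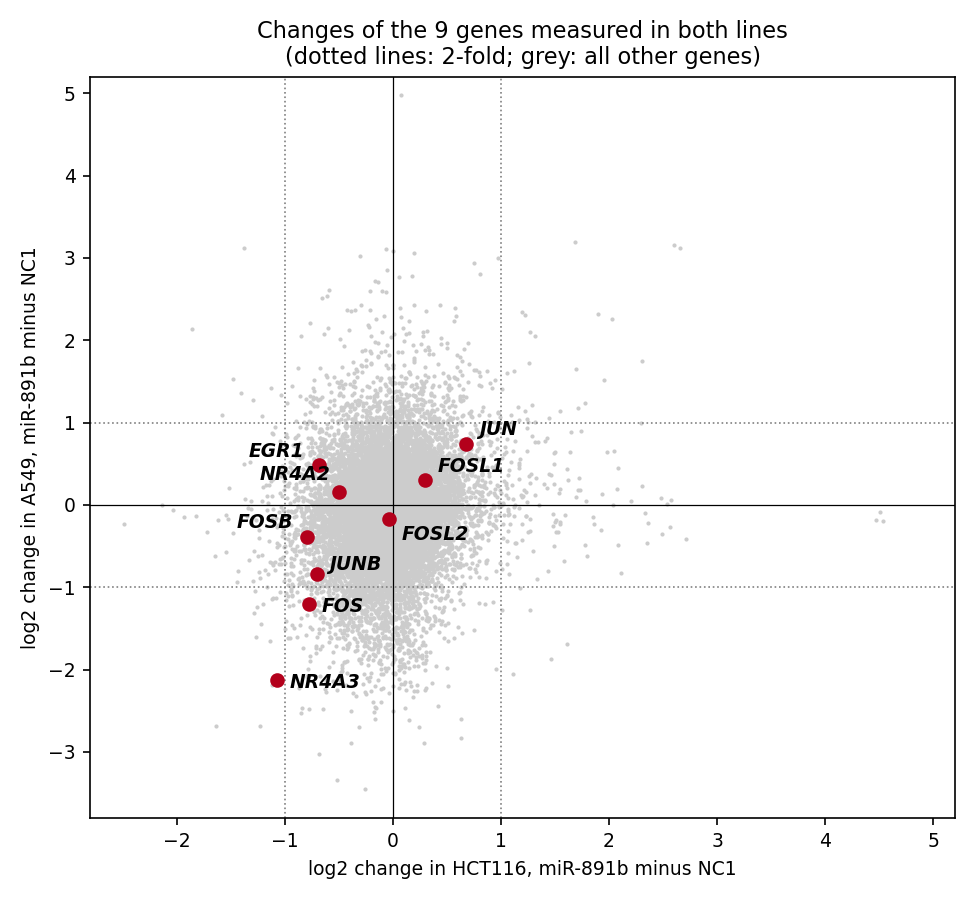
Log2 change with miR-891b in HCT116 (horizontal) against that in A549 (vertical) for the 9 genes measured on all 4 arrays (red) and all other such genes (grey). Dotted lines mark 2-fold and each value rests on 1 array per group. NR4A3 lies past 2-fold in both lines (-1.07 and -2.12), JUN lies in the opposite quadrant (0.68 and 0.74), and EGR1 and NR4A2 lie left of 0 in HCT116 and above 0 in A549.

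FOS and FOSB encode the FOS proteins with strong transactivation domains, which appear soon after a stimulus. The FOS level (probe at chr14:75748214-75748273, on hg19 like all probe positions below) was 0.74 and -0.03 in HCT116 and 0.69 and -0.51 in A549. Both NC1 arrays were high and both miR-891b arrays were low, with a change of -0.78 in HCT116 (1.72-fold lower) and -1.20 in A549 (2.30-fold lower). The change in HCT116 was below that of 97.8% of all measured genes and that in A549 below that of 96.5%. After normexp background correction with an offset of 50 the FOS change was -0.42 in HCT116 and -0.66 in A549, so the 2-fold call in A549 ended there. FOSB (chr19:45978205-45978264) stood at -0.84, -1.63, -3.05 and -3.44 in the same order. Its A549 signals were the dimmest measured among the members, at 9.0 and 6.85 intensity units. The FOSB change was -0.79 in HCT116 and -0.38 in A549, and after normexp it was -0.25 and -0.04.

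FOSL1 and FOSL2 encode FRA-1 and FRA-2, FOS family members that lack the strong transactivation domain and are often sustained in carcinoma cells. FOSL1 (chr11:65660098-65660157) stood at 2.36, 2.66, -0.35 and -0.05 on the 4 arrays. It was higher with miR-891b by 0.30 in each line, a change of 1.23-fold. FOSL2 (chr2:28637175-28637234) stood at -0.60, -0.64, 1.15 and 0.98. Its changes of -0.04 and -0.17 were the smallest in HCT116 and the smallest but that of NR4A2 in A549. The 2 genes differed between the lines in opposite directions, FOSL1 being lower in A549 than in HCT116 and FOSL2 higher.

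JUN and JUNB encode the partners of the FOS proteins, and JUNB is also known to restrain JUN-driven transcription. JUN (chr1:59246511-59246570) stood at 0.91, 1.59, 1.31 and 2.05 in the same order of arrays, low on both NC1 arrays and high on both miR-891b arrays of the lines. The JUN change was 0.68 in HCT116 (1.60-fold higher) and 0.74 in A549 (1.67-fold higher), and it lay between 0.54 and 0.82 over all settings in both lines. JUNB (chr19:12902998-12903057) stood at 0.33, -0.37, -0.35 and -1.19, a change of -0.70 and -0.84, which normexp brought to -0.39 and -0.35. Within an array, differences between genes do not depend on the scaling by 1 factor per array. The change of JUN exceeded that of FOS by 1.46 in HCT116 and 1.94 in A549, and that of JUNB by 1.38 and 1.59. JUN thus gained over FOS by 2.74-fold in HCT116 and 3.85-fold in A549, and over FOSB by 2.77-fold and 2.18-fold. FOSL1 gained over FOS by 2.11-fold and 2.83-fold. These gains hold for the main setting and do depend on the background correction. All were smaller with normexp, where FOS changed by -0.42 and -0.66 and JUN by 0.54 and 0.68 in HCT116 and A549.

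EGR1 is an immediate early zinc finger factor whose own promoter carries the CArG boxes shown above. Its probe (chr5:137804891-137804950) stood at 5.11 with NC1 and 4.43 with miR-891b in HCT116, and at -1.31 and -0.83 in A549. EGR1 was lower with miR-891b in HCT116 by a change of -0.68 and higher in A549 by 0.48. With normexp the A549 change was 0.16 and that in HCT116 was -0.59. The difference between the lines in the change, 1.16, was not tested, since each line had 1 array per group.

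The NR4A genes encode receptors that respond to the same stimuli, often through CREB. NR4A3 was measured by a probe at chr9:102628985-102629044 that stood at -0.95, -2.02, 0.48 and -1.65 on the 4 arrays. The A549 NC1 array was the highest, and both miR-891b arrays were below both NC1 arrays. The change was -1.07 in HCT116 (2.10-fold lower) and -2.12 in A549 (4.36-fold lower), and 0.597% and 0.337% of all measured genes changed further down. Normexp brought the NR4A3 changes to -0.34 and -0.88, so neither was past 2-fold. This gene was among those 2-fold lower in both lines, which were 16 of 18063 genes measured on all 4 arrays. A second NR4A3 probe (chr9:102595751-102595810), which the array design assigns to another transcript variant, stayed near background on all 4 arrays and was marked well above it on none, with signals of 1.13 to 2.41 intensity units.

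NR4A2 was measured by 2 probes. The probe with the higher mean log2 signal, which stands for the gene (chr2:157182256-157182315), stood at 1.1, 0.60, -0.98 and -0.82, and the other (chr2:157181727-157181786) stood at 1.27, 0.51, -0.92 and -0.97. In HCT116 both gave a lower signal with miR-891b, with changes of -0.50 and -0.76, of which only the second is past 1.5-fold, as is their mean of -0.63. In A549 they changed by 0.15 and -0.05, both under the 90th percentile of the spot-level SD (0.19), so these probes do not settle a direction there. NR4A1 (chr12:52453226-52453285) was not well above background on either HCT116 array and has no change there. In A549 its level was -1.69 in control cells and -2.36 after miR-891b, a change of -0.67, which was -0.15 with normexp. Within A549, the change of NR4A3 lay below that of NR4A1 by 2.74-fold and below that of NR4A2 by 4.84-fold, and in HCT116 it lay below that of NR4A2 by 1.48-fold. Both A549 differences were smaller with normexp, where NR4A3 changed by -0.88 and NR4A2 by -0.03. With normexp the HCT116 changes were -0.34 for NR4A3 and -0.495 for NR4A2. The probe that stands for a gene was chosen anew under normexp. These normexp values of NR4A2 may therefore be those of its other probe, and no turn of order is read from them.

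Over the 9 members measured on all 4 arrays, 5 were lower in both lines, 2 were higher in both and 2 went opposite ways, of which NR4A2 has no settled direction in A549. Of all 18063 such genes, 33.8% were lower in both, 21.1% were higher in both and 54.9% had the same sign. Past 1.5-fold, 3 members (FOS, JUNB and NR4A3) were lower in both lines, as were 1.38% of all genes. With normexp none of the 3 was, since all were under 1.5-fold in HCT116. JUN was past 1.5-fold higher in both, as were 0.902% of all genes. With normexp JUN too was under 1.5-fold in HCT116, at 0.54.

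**Figure D3:**
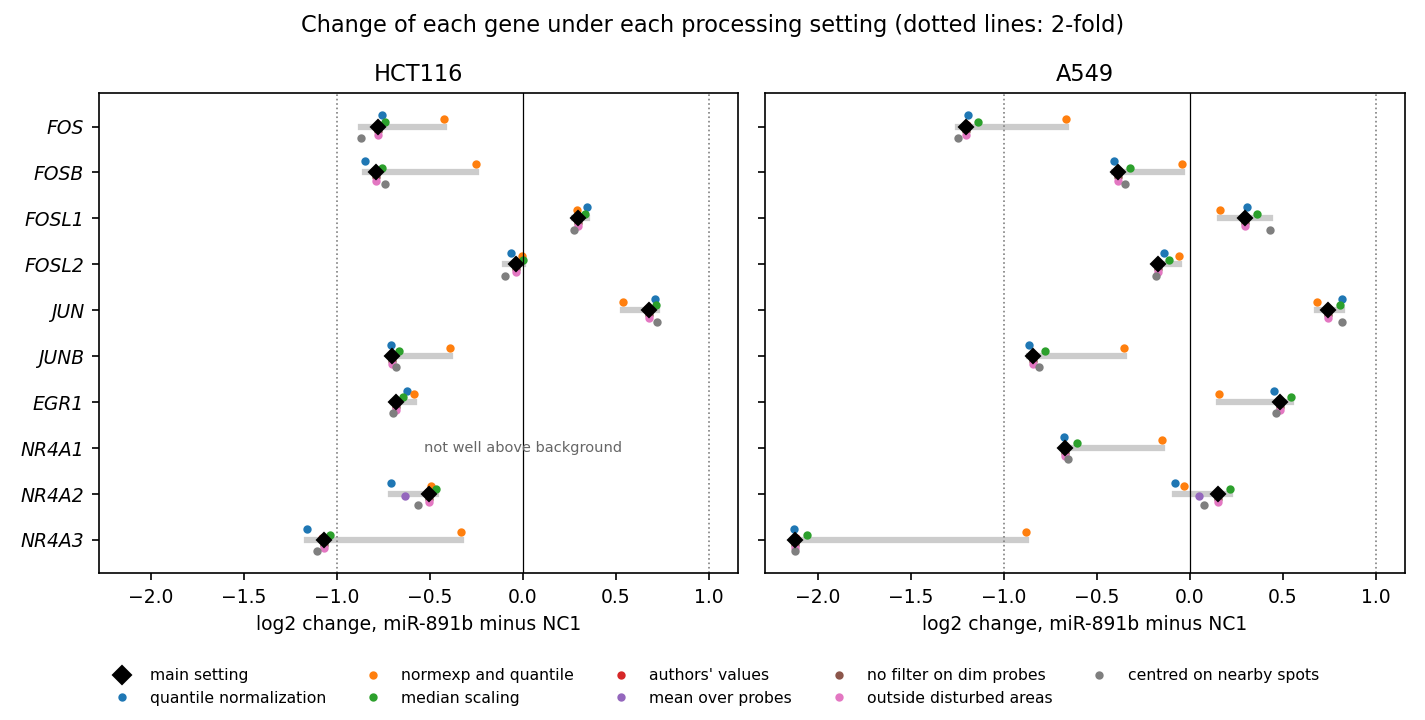
Log2 change of each gene with miR-891b in HCT116 (left) and A549 (right) under the main setting (black diamonds) and 8 other settings (coloured dots), with grey bars from the lowest to the highest value and dotted lines at 2-fold. Every dot keeps the side of 0 of its diamond except NR4A2 in A549, and normexp gives FOS, FOSB, JUNB and NR4A3 the value nearest to 0 in both lines, with NR4A3 at -0.34 and -0.88.

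The position on the array was looked at because the HCT116 miR-891b array carried areas of stray signal, with 10.5% of its gene spots. None of the 12 member spots lay in such an area on any array, where an area was called when at least 10% of the nearby spots that are dim elsewhere were well above background. The measured gene spots within 10 rows and 10 columns of each member's spot had median changes between -0.05 and 0.09 in HCT116 and between -0.13 and 0.08 in A549. With these local medians taken off, the NR4A3 changes were -1.11 and -2.12, the FOS changes -0.87 and -1.24 and the JUN changes 0.72 and 0.82.

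The control cells of the lines differed widely in these genes, a comparison that also sets slide against slide. EGR1 was 86.0-fold lower in A549 NC1 than in HCT116 NC1, a log2 difference of -6.43, and 38.4-fold lower between the miR-891b arrays. FOSL1 was 6.54-fold, FOSB 4.64-fold and NR4A2 4.22-fold lower in A549 NC1. FOSL2 was 3.38-fold and NR4A3 2.68-fold higher there, and NR4A1 was at least 3.63-fold higher, its HCT116 signal being not well above background and set at the lowest signal so marked on that array. Among the 9 members measured on both NC1 arrays, 4 were at least 2-fold lower and 2 at least 2-fold higher in A549, beside 16.2% and 11.1% of all genes. FOS differed by -0.06 and JUN by 0.40. The difference of NR4A3 between the lines shrank from 1.42 on the NC1 arrays to 0.37 on the miR-891b arrays, while that of FOSL1 was -2.71 on both.

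The genes around these factors were read from 6 lists written from general knowledge. Among 10 measured AP-1 partners (the remaining JUN, ATF, BATF and small MAF proteins), none was past 2-fold in HCT116, beside 0.843% lower and 1.16% higher of all genes. In A549, with 5.57% and 4.01% of all genes, JDP2, a repressor of AP-1, was lower with a change of -1.07, and ATF3, a stress-induced repressor, was higher by 1.26. JDP2 changed by -0.99 in HCT116, and its spot was in a stray signal area of the HCT116 miR-891b array (18.5% of nearby dim spots). Of the other immediate early genes, 0 of 29 were 2-fold lower and 1 higher in HCT116, which was the kinase gene PLK2 at 1.07. In A549, 0 of 28 were 2-fold lower and 3 were higher, namely the small GTPase gene RHOB at 1.54, NFKBIZ, a nuclear cofactor of NF-kB, at 1.04, and PHLDA1 at 1.00. The medians of this list were -0.03 in HCT116, with the sign turned under quantile normalization, normexp and median scaling (up to 0.07), and 0.08 in A549.

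The genes listed as feedback inhibitors of ERK signalling (DUSP, SPRY and SPRED genes) had a median change of -0.16 in HCT116 and 0.38 in A549, with 13 measured in each. Some of the listed DUSP proteins, such as that of DUSP10 below, act on other kinases, so the medians are not those of ERK inhibitors alone. The HCT116 median was -0.35 outside areas of stray signal and -0.25 without a filter on dim probes, and the A549 median was 0.23 with normexp. None was past 2-fold in HCT116, where 0.843% of all genes were lower and 1.16% higher, and 1 was higher in A549, beside 4.01% of all genes. DUSP10, a phosphatase of the stress-activated kinases, was higher by 1.38 in A549, and its spot was in a stray signal area of the HCT116 miR-891b array only. Upstream kinases, serum response factor, its partners and CREB family members had a median change of -0.05 in HCT116 (26 measured) and -0.18 in A549 (25 measured). Among them 1 gene was past 2-fold, CREM in A549 at -1.02, beside 5.57% of all genes 2-fold lower there. CREM encodes activators and repressors that bind cyclic AMP response elements.

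Genes known to be driven by AP-1 had a median of -0.06 over 16 genes in HCT116 and -0.30 over 18 in A549. The HCT116 median was -0.14 outside areas of stray signal and -0.13 as a mean over probes, and the A549 median was -0.13 with normexp and -0.20 with quantile normalization. In A549, 3 of the 18 were at least 2-fold lower, namely the cytokine IL11 with a change of -2.70, the G1 cyclin CCND1 with -1.61 and the urokinase receptor PLAUR with -1.47, and none was 2-fold higher, beside 5.57% and 4.01% of all genes. The PLAUR spot was in a stray signal area of the A549 miR-891b array (13.7%). In HCT116 none was 2-fold lower, and SPP1, the secreted phosphoprotein osteopontin, was higher by 1.44, in a stray signal area of the miR-891b array (18.02%). Of all genes in HCT116, 0.843% were 2-fold lower and 1.16% higher. IL11 stood at 2.16 with NC1 and -0.54 with miR-891b in A549, and at -1.52 and -1.83 in HCT116. None of the 4 measured EGR and NR4A partners (NAB and RXR genes) was past 2-fold in either line, with medians of -0.04 in HCT116 (0.0025 under quantile normalization) and 0.18 in A549. Of the 2-fold calls in these lists, those of PLK2, RHOB, IL11 and CCND1 held under each of the settings tried. Normexp brought JDP2, NFKBIZ, PHLDA1, DUSP10, PLAUR, SPP1 and CREM under 2-fold, CREM (between -1.02 and -0.70) was so under 3 other settings too, and ATF3 stood at 0.66 as the mean over its probes.

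**Figure D4:**
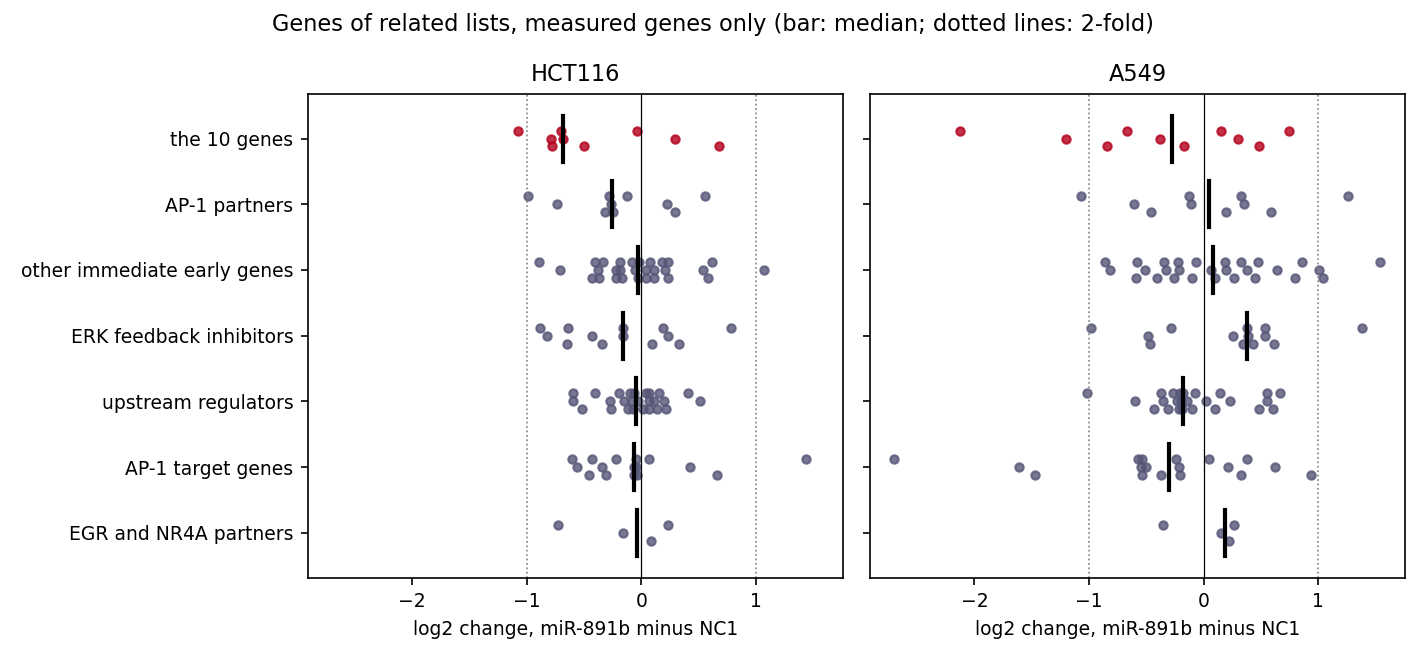
Log2 changes with miR-891b in HCT116 (left) and A549 (right) for the 10 genes (red) and for 6 lists of related genes (grey-blue), measured genes only, with a bar at each median and dotted lines at 2-fold. The points of the other immediate early genes spread around 0 in both lines, with medians of -0.03 and 0.08, and the lowest AP-1 target gene in A549 is IL11 at -2.70.

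By a fixed rule, the genes with the levels most like those of NR4A3 over the 4 arrays were sought among 18063 genes measured on all of them. The measure was the root mean square distance between levels centred on each gene's mean, and 4 arrays allow many genes to lie close. The nearest was SULT2B1, a cholesterol sulfotransferase gene, at a distance of 0.12, with changes of -1.05 in HCT116 and -2.15 in A549, and of -0.42 and -1.25 with normexp. RSPH14 followed at 0.17, with changes of -0.71 and -1.80 (-0.31 and -0.99 with normexp), and then a probe that the array design gives no gene name, at 0.18.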

How the data were processed

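Total RNA (100 ng) of 4 cultures was labelled with Cy3 and hybridised to Agilent arrays, per the labels, and samples were grouped by title. The scanner files were deposited as linear intensity, background-subtracted and detrended within each array by Feature Extraction 11.5.1.1, per the file headers, with probes placed on hg19. A further deposited table holds log2 values whose making the authors do not state. Their median distance from the main setting here was at most 0.0069 on any array (column medians -3.8 and -3.6 for NC1 and miR-891b in HCT116, and -3.71 and -3.68 in A549), so scale and centring were the same to that precision, and they served as an alternative.

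Spots flagged as outliers by the scanner software were removed, log2 signals were averaged per probe and each array's 75th percentile was subtracted (54.9, 57.0, 74.8 and 74.2 intensity units in the same order). Of several probes, the one whose log2 signal averaged highest over the 4 arrays stood for the gene. This probe was chosen anew with the values of each alternative normalization. A gene was counted as measured where both arrays compared had that probe well above background. Changes were called by size, at 2-fold. Named genes were the 10 members, up to 4 genes past 2-fold per list and line, and the 3 nearest to NR4A3. IL8 was matched to CXCL8 through RefSeq synonyms. The members, lists and markers were chosen with earlier results of these data known. The steps were tested on simulated data.

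The alternatives were quantile normalization, normexp (offset 50) with quantile normalization, median scaling, the authors' values, the mean over probes, no filter on dim probes, leaving out areas of stray signal, and 1.5-fold. Centring on nearby spots was added after seeing the data. Tools were limma 3.58.1 in R 4.3.3, and numpy 2.4.6 and pandas 2.3.3 in Python 3.11.15.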

Additional observations from a re-analysis of the deposited data

Results flagged for a closer look

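EGR1 went opposite ways in HCT116 and A549, with changes of -0.68 and 0.48, a difference of 1.16 (A549 minus HCT116). The probe that stands for NR4A2 did so too, with -0.50 and 0.15, a difference of 0.655. The direction of NR4A2 in A549 is not settled, since the second probe changed by -0.05 there. The gene's change was -0.079 under quantile normalization and -0.031 under normexp, where the probe that stands for it was chosen anew. Both values may be those of the second probe, so they are not separate evidence. Neither difference was tested, since each line had 1 array per group.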

How the results depend on the processing

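Of 152 values of single members under the alternatives, 150 kept their sign. The exceptions were NR4A2 in A549 under quantile normalization and under normexp with quantile normalization. In both, the probe that stands for the gene was chosen anew and may be the other NR4A2 probe. Many of the values could hardly differ from the main setting, so the count says little about robustness. Dropping the filter on dim probes, or leaving out areas of stray signal, changed none of these values. The mean over probes changed NR4A2 only, and the authors' values were nearly those of the main setting. Normexp, whose offset of 50 intensity units shrinks changes of dim probes by construction, left 0 members 2-fold lower in HCT116 (1 in the main setting) and 0 in A549 (2), brought the member medians to -0.34 and -0.051, and left 1 member 2-fold higher in A549 NC1 than in HCT116 NC1 (2). Over all genes it gave 13 lower and 32 higher in HCT116, and 419 and 347 in A549, against 161, 221, 1189 and 855. Without a filter on dim probes NR4A1 gained a value of 0.67 in HCT116, from signals not well above background. The HCT116 member median was then -0.59 over 10 members, and the gene counts were 1434, 2788, 3081 and 2934. Outside areas of stray signal 139 genes were higher in HCT116. At 1.5-fold the members were 5 lower and 1 higher in HCT116, and 4 and 1 in A549, among 1080, 747, 3259 and 2369 genes. Each line gave an NC1 and a miR-891b array, so the arrays are paired by line. Neither a paired analysis nor a fit with the line as a block was run, since the genes were chosen with these changes known. Signals near background limit FOSB in A549 and NR4A1. Dim signals also limit NR4A3 and FOSB in HCT116, both in the class of signals under 30, and NR4A3 on the A549 miR-891b array. The lack of replicates limits all values.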
